A study of Mus musculus with 57 samples.

Results

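The comparison set haematopoietic stem cells (HSC) against granulocyte-monocyte progenitors (GMP) from the bone marrow of control mice, and was measured by RNA sequencing. Its members are 7 of the 57 libraries of the series: 3 HSC libraries, from mouse pools 3, 5 and 7, and 4 GMP libraries, from mouse pools 1, 3, 5 and 7. They were taken by the population, treatment and batch that the labels give. All 7 came from male C57BL/6 mice, 8 weeks old at the start, that had received a control antibody for 4 weeks, and all belong to batch A. The wider study treated other mice with an antibody against PAPP-A, a secreted protease that frees insulin-like growth factors from their binding proteins. Another 4 HSC and 4 GMP libraries came from such mice (pools 2, 4, 6 and 8, same strain, sex, age, duration and batch) and were used to see how far each difference recurred. A library is 1 mouse pool, with no number of mice given for it, and the gates of the sort were not at hand. Pool numbers mark the same mice, so HSC and GMP libraries of pools 3, 5 and 7 share their animals, while GMP pool 1 has no HSC partner.

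Haematopoietic stem cells are rare marrow cells that renew themselves and give rise to every blood lineage, and most of them divide seldom in the adult. Granulocyte-monocyte progenitors lie several steps downstream. They are committed to neutrophils, monocytes, basophils and their relatives, divide quickly, and fill their first set of granules with myeloperoxidase and serine proteases. The step between the 2 stages is known for the loss of a stem cell transcription factor network and the gain of the C/EBP and PU.1 factors of the myeloid lineage.

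Total counts ranged from 8023673 to 9023967 in the HSC libraries and from 7172857 to 32179356 in the GMP libraries. Levels are given as CPM, a scaled count corrected for library size with TMM factors (trimmed mean of M-values), and compare 1 gene across libraries, not 1 gene with another, since they are not divided by transcript length. Correlations of log2 CPM across genes ran from 0.94 to 0.975 between HSC libraries, from 0.956 to 0.984 between GMP libraries and from 0.784 to 0.839 between an HSC and a GMP library. Along the first principal component, with 75.6% of the variance, the 2 populations did not overlap. Some libraries stood apart within their population. In GMP pool 1, 7.27% of counts fell on rows with a UCSC transcript ID, against 0.634 to 0.828% in the other GMP libraries, and 3.29% fell on 1 gene, Gm42418, which overlaps ribosomal RNA sequence. HSC pool 7 and GMP pool 5 lay together on the second component (10.6% of the variance, scores 56.39 and 49.15, against -32.83 to -8.6 for the other 5 libraries). Short transcripts were higher in these 2 libraries than in the rest of their groups: genes with annotated transcripts of up to 2042 bases were shifted by a median of 0.25 on the log2 scale in HSC pool 7 and 0.36 in GMP pool 5, and those with transcripts from 4656 bases by -0.31 and -0.35. HSC pool 7 also held the highest levels of haemoglobin and neutrophil transcripts. Its 4 adult haemoglobin genes summed to 749.8 CPM, against 25.95 and 121.9 CPM in HSC pools 3 and 5 and 5.341 to 13.8 CPM in the GMP libraries. Values without these libraries are given beside the results they move most.

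**Figure D1:**
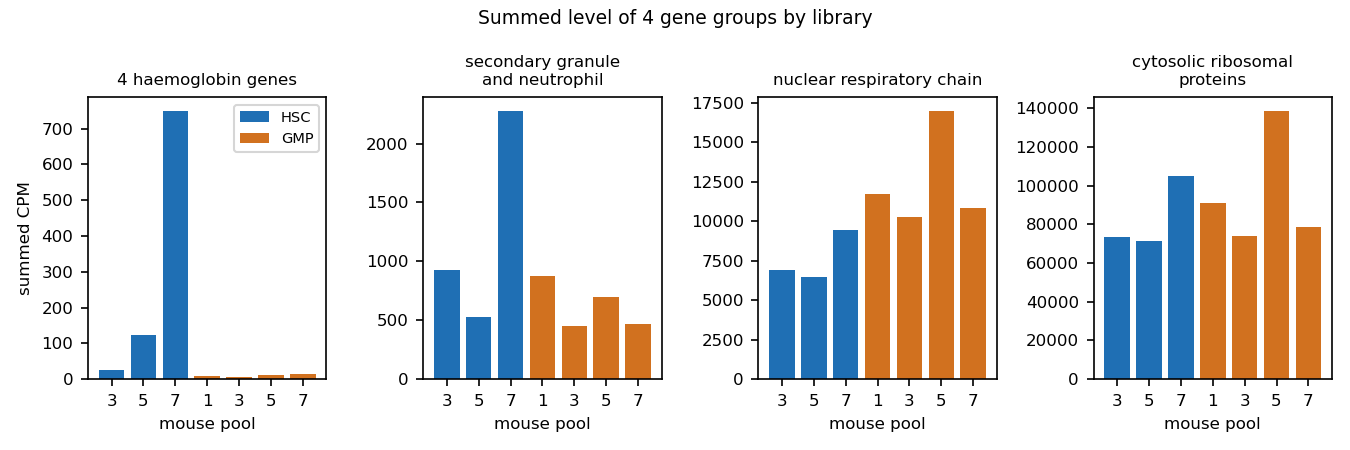
Summed CPM (y axis) of 4 gene groups in each control library, by mouse pool (x axis), with HSC pools 3, 5 and 7 in blue and GMP pools 1, 3, 5 and 7 in orange. HSC pool 7 is the highest of the 7 for haemoglobin and for secondary granule and neutrophil genes, and GMP pool 5 is the highest for respiratory chain and cytosolic ribosomal protein genes.

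Stem cells and granulocyte-monocyte progenitors differed at a large share of their expressed genes. Of 14595 genes tested, 6239 (42.7%) passed an adjusted p of 0.05 in edgeR's quasi-likelihood test: 3359 (23%) were higher and 2880 (19.7%) were lower in HSC. Counts of list members below are to be read against the shares of 23% and 19.7%. These shares differed with transcript length, as given below with the ribosome and mitochondrial genes. The higher genes differed by more. Their median log2 difference, HSC minus GMP, was 1.64 in size and 2447 of them (16.8% of tested genes) exceeded 1, while the lower genes had a median size of 0.99 and 1421 (9.74% of tested genes) exceeded 1. A difference over 5 was found for 337 higher and 95 lower genes. The 3 HSC values lay wholly above the 4 GMP values at 26% of tested genes and wholly below them at 23.3%. The median over all tested genes was -0.03. Scaling by library totals alone moved it by 0.24 to 0.21 and gave 4061 higher and 1685 lower genes, so 70.7% of calls were higher against 53.8% with TMM, and small differences below depend on the scaling. With the mouse pool as a paired block over pools 3, 5 and 7 (6 libraries), 3687 genes passed, 2267 higher and 1420 lower, of which 2244 and 1415 were also called without the block. The p-values measure the spread between libraries of a population, in which mouse pool, sort and library preparation cannot be told apart. Without the block, libraries of a shared pool are treated as independent. In bulk RNA, fewer cells expressing a gene and less of its RNA per cell cannot be told apart.

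**Figure D2:**
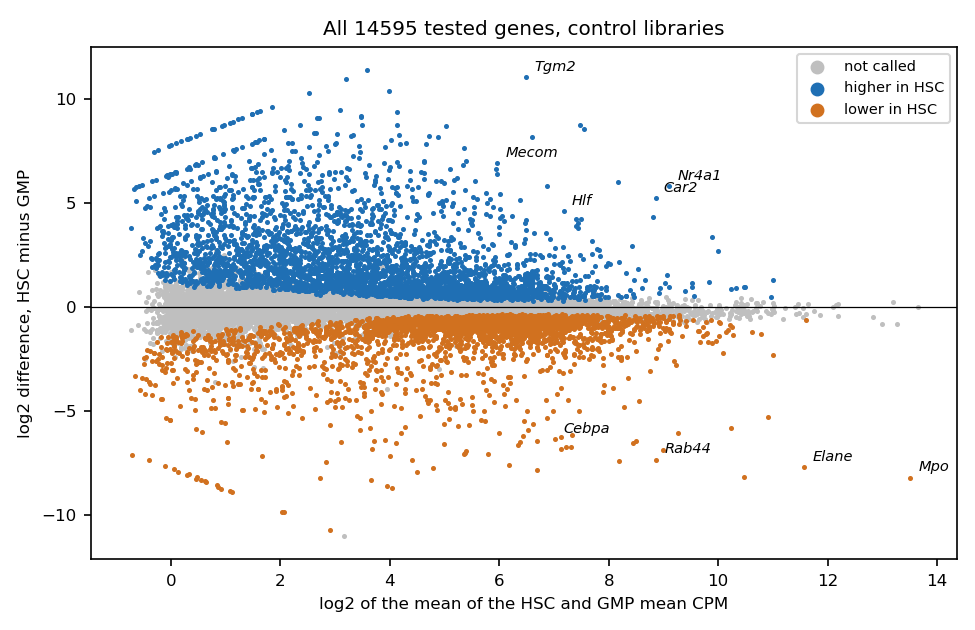
Log2 difference, HSC minus GMP (y axis), against the log2 of the mean of the 2 group means in CPM (x axis) for the 14595 tested genes of the control libraries. Blue points were called higher and orange points lower in HSC at an adjusted p of 0.05. The tested genes range from stem cell regulators such as Mecom and Hlf high above the zero line to granule genes such as Mpo and Elane far below it.

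Transcription factors known for stem cell identity were higher in HSC almost without exception. Of 30 tested members of that list, 27 were higher, 0 were lower and 3 did not pass (Hoxb4, Foxo3 and Runx1), with a median log2 difference of 2.69. Mecom, a zinc finger factor needed for long-term stem cells, had 115.6, 148.1 and 107.0 CPM in HSC pools 3, 5 and 7, against 0.5038, 1.145, 0.9815 and 1.185 CPM in GMP pools 1, 3, 5 and 7. Hlf, a PAR bZIP factor that marks immature cells, had 290.5, 311.8 and 231.2 CPM in HSC, against 8.229, 17.26, 8.167 and 11.98 CPM in GMP. The HSC values of both genes lay far above every GMP value, with log2 differences of 6.91 (SE 0.234, adjusted p = 4.5e-07) for Mecom and 4.60 (SE 0.278, adjusted p = 4.03e-06) for Hlf. The homeobox factor Meis1 had 347.3, 388.9 and 284.2 CPM in HSC, against 11.08 to 29.19 CPM in GMP. Mycn, the MYC family member of immature cells, differed by 6.84 (adjusted p = 2.68e-06) and the repressor Gfi1b by 4.88 (adjusted p = 1.47e-05). Several factors were almost unread in GMP. Nkx2-3, a homeobox factor, had 995 counts over the HSC libraries and 3 over the GMP libraries, a ratio of 813 after scaling (exact 95% interval 278 to 3951, counting error only). Tcf15, a bHLH factor of quiescent stem cells in mouse, had 352 and 1 counts, a ratio of 863 (154 to 34192). At the other end stood factors that both populations use: Runx1, a master regulator of blood formation, had 109.9 to 143.8 CPM in HSC and 84.51 to 145.3 CPM in GMP, which overlapped (log2 0.21, adjusted p = 0.416), and the ETS factor Fli1 differed by 0.49 (adjusted p = 0.0186), a call that did not hold with the pool block (0.52) or without HSC pool 3 or 5. Foxo3 passed without GMP pool 3, GMP pool 5 or HSC pool 7 (0.98, 0.64 and 1.08), and Hoxb4 without GMP pool 5 (0.63). Mecom lies on chromosome 3 (29951296 to 30548008, minus strand) and Hlf on chromosome 11 (90336536 to 90390895, minus strand) of GRCm38.

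**Figure D3:**
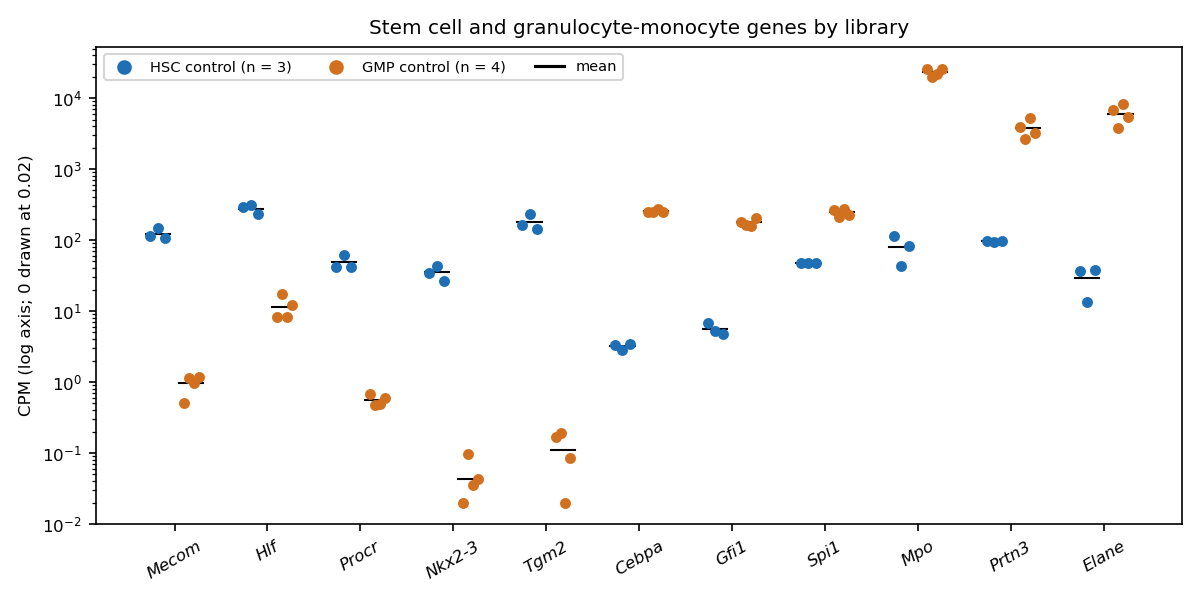
CPM on a log axis (y axis) of 11 named genes (x axis) in each control library. Blue points are the 3 HSC libraries, orange points the 4 GMP libraries, and bars their means, with a value of 0 drawn at 0.02. The 5 genes on the left are high in HSC and the 6 on the right are high in GMP, and no gene overlaps between the populations.

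The HOX and imprinted gene lists lay on the same side. HOX genes encode homeobox factors of body patterning that immature blood cells also use. Of 13 tested HOX genes, 11 were higher and 0 lower in HSC (median log2 3.02), while the rest of the 36 measured were too low in both populations to test. The filter kept a gene on its level in either population. HOX genes near 0 in GMP, such as Hoxa10, thus entered through HSC, where they were high. For such genes the direction was largely set by that entry. Hoxa10 differed by 6.23 (adjusted p = 1.44e-06) with 18.96, 28.43 and 22.62 CPM in HSC and 0.1679 to 0.3815 CPM in GMP. Hoxa9, the most studied HOX factor of myeloid progenitors, kept a clear level in GMP, with 109.9, 120.5 and 96.08 CPM in HSC, against 17.8 to 34.25 CPM in GMP (log2 2.03, adjusted p = 7.15e-05). Among 18 tested genes of the imprinted growth list, 16 were higher and 0 lower (median 3.53). Members near 0 in GMP, such as Ndn, likewise entered the test through HSC. Cdkn1c, the CDK inhibitor p57, had 18.01, 22.22 and 24.81 CPM in HSC, against 0.4907 to 0.6676 CPM in GMP (log2 5.22, adjusted p = 1.54e-06). Ndn, the growth suppressor necdin, had 623 counts over HSC and 3 over GMP libraries, a ratio of 509 (173 to 2476). The non-coding RNA Meg3 differed by 4.25 (adjusted p = 6.92e-05) and the adaptor Grb10 by 2.29 (adjusted p = 9.7e-05).

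Surface and niche-signalling genes of stem cells formed the list with the greatest median difference, 5.47, with 36 of 37 tested members higher. The 1 lower member was Cd63, a tetraspanin of granules and lysosomes (log2 -1.27, adjusted p = 0.00353). Procr, the endothelial protein C receptor used to mark stem cells, had 42.37, 61.41 and 41.96 CPM in HSC, against 0.6718, 0.4769, 0.4907 and 0.5925 CPM in GMP (log2 6.46, SE 0.241, adjusted p = 4.81e-07). Ltb, which encodes lymphotoxin beta, differed by 5.70 and Mamdc2 by 7.85 (adjusted p = 1.28e-06 and 1.76e-06). Among all tested genes, the 12 higher genes with the smallest p included the matrix proteoglycan Bgn (66.2, 69.76 and 58.01 CPM in HSC and 0.1052 to 0.2861 CPM in GMP), the junctional adhesion protein gene F11r (log2 6.98), the collagen chain gene Col4a1 (6.15), the peptidoglycan amidase gene Pglyrp2 (6.19) and Tgm2, which encodes transglutaminase 2. Tgm2 had 164.1, 229.9 and 142.4 CPM in HSC and at most 0.1908 CPM in GMP (log2 11.06, adjusted p = 5.29e-07). The same 12 held Mecom, Procr, Ttc39b, Gm19590, Hacd4, Fam110c and Crispld1. Another 28 called genes had no count in any GMP library. Lhcgr, the luteinising hormone receptor, had 21.18, 27.55 and 23.47 CPM in HSC, which is at least 550-fold higher when GMP is set to a floor of 3 counts over its 4 libraries (0.0437 CPM). On the same floor D630039A03Rik was at least 417-fold higher and Ptn, the growth factor pleiotrophin, at least 264-fold higher. Of genes with counts in GMP alone, 17 were called lower in HSC.

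Megakaryocyte and platelet genes were higher in HSC throughout: 27 of 27 tested members (median log2 4.12), with summed levels of 3490 to 3734 CPM in HSC and 675.6 to 838.9 CPM in GMP. Von Willebrand factor (Vwf) had 128.7, 155.3 and 90.24 CPM in HSC and 2.015, 12.59, 2.068 and 2.709 CPM in GMP (log2 4.73, adjusted p = 0.000296). Pf4, the platelet chemokine, had 89.92, 61.32 and 105.3 CPM in HSC, against 0.5038, 12.02, 4.382 and 1.651 CPM in GMP. GMP pool 3 was the highest GMP library for Vwf, Pf4 and Gfi1b. The integrin gene Itga2b (CD41) differed by 2.32 (adjusted p = 8.17e-05).

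Of 22 tested erythroid genes, 13 were higher in HSC, 2 were lower and 7 were not called (median log2 2.05). The carbonic anhydrase gene Car2 had 914.8, 807.4 and 984.4 CPM in HSC, against 13.6 to 33.48 CPM in GMP (log2 5.23, adjusted p = 2.41e-06), and the regulators Gata1 and Hemgn and the erythropoietin receptor Epor differed by 2.87, 4.84 and 4.96. Globins were called higher too, and were uneven between HSC libraries. Hbb-bs, a beta globin named after its values were seen, had 8.156, 48.12 and 262.8 CPM in HSC pools 3, 5 and 7, against 0.5723 to 5.29 CPM in GMP. Lower genes included Tfrc, the transferrin receptor (log2 -1.35, adjusted p = 3.25e-05). Without HSC pool 7 the list's median was 1.62. The part of red cell RNA in the globin result was not tested.

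Granule genes gave the opposite picture. Of 33 tested members of the primary granule and GMP list, 32 were lower in HSC and 1, the lysozyme gene Lyz2, was higher (median log2 -5.29). Mpo, which encodes myeloperoxidase, had 112.9, 42.98 and 82.82 CPM in HSC pools 3, 5 and 7, against 25600, 19661, 21965 and 26019 CPM in GMP pools 1, 3, 5 and 7. Neutrophil elastase (Elane) had 36.75, 13.49 and 37.82 CPM in HSC, against 6762, 3804, 8286 and 5375 CPM in GMP. Proteinase 3 (Prtn3) had 98.29, 94.88 and 96.32 CPM in HSC, against 3907, 2651, 5269 and 3233 CPM in GMP. Every GMP value lay far above every HSC value for the 3 genes. The log2 differences were -8.19 for Mpo (SE 0.459, adjusted p = 2.79e-06), -7.69 for Elane (SE 0.539, adjusted p = 8.74e-06) and -5.29 for Prtn3 (SE 0.302, adjusted p = 3.12e-06). Within HSC, pool 5 was the lowest of the 3 for Mpo and Elane and also for the protease cathepsin G (Ctsg, 10.17, 3.493 and 16.18 CPM in HSC, 2174 to 3892 CPM in GMP), while Prtn3 was almost equal in the 3. The granule protease gene Prss57 differed by -6.25 (adjusted p = 4.67e-07), the C-type lectin receptor Clec12a by -6.44 and Plac8 by -5.78. Lyz2 had 206.6, 198.9 and 402.1 CPM in HSC and 85.58 to 204.1 CPM in GMP (log2 1.03, adjusted p = 0.0397), and no longer passed without HSC pool 7, GMP pool 3 or GMP pool 7 (0.61, 0.90 and 0.88).

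The upstream regions of the 3 granule genes are shown because the 3 genes mark 1 lineage and were all called lower. The bases are from RefSeq on GRCm38.p6, plus strand, 5′ to 3′, from the start of the 250 bases before each RefSeq gene start up to the first base that GENCODE M21 annotates as exon. The Prtn3 stretch lies inside the longer Prtn3 gene of GENCODE M21, outside its exons, and the other 2 end at the annotated gene start. Capitals mark GAGGAA, a purine-rich core of the kind PU.1 binds.
Mpo, chr11:87793534-87793580: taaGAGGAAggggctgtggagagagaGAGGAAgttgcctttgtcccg
Prtn3, chr10:79879417-79879613: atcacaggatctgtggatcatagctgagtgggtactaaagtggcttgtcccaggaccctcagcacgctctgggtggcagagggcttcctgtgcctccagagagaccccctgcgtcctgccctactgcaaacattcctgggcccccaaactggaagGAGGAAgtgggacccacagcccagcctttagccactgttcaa
Elane, chr10:79886062-79886246: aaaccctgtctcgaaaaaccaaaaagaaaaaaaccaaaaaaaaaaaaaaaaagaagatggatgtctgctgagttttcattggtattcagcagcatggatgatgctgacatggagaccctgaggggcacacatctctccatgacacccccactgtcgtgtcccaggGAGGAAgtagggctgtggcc
GAGGAA, searched on both strands, stood 95 bases before the RefSeq start of Prtn3, 85 before that of Elane, and 247 and 224 before that of Mpo. Of 32851 RefSeq promoters, 23.3% held it in the same 250 bases. In the full 250 bases of the 3 genes, the Myb core AACNG was also found on either strand, as in 74.2% of all promoters, while motifs of 4 other factor families had no match on either strand. These were TTNNGNAA for C/EBP factors, present in 36.8% of all promoters; AGATAA for the blood zinc finger factors, in 9.99%; TGTGGT for Runx factors, in 14%; and CANCTG for bHLH factors, in 44.8%. No match says only that these letters are absent from the window. Of the 250 bases, 203 in Mpo, 53 in Prtn3 and 65 in Elane lie from the first annotated exon base on and are not printed. The Myb matches of Mpo (165 bases before the RefSeq start) and Elane (50 and 20 bases) lie in that unprinted part. These matches describe letters and are not binding sites.

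Myeloid transcription factors were mixed, with 13 lower, 6 higher and 5 not called of 24 tested (median log2 -0.57). Cebpa, the factor that drives the granulocyte-monocyte fate, had the smallest p of all tested genes. It had 3.283, 2.814 and 3.405 CPM in HSC, against 249.7, 246.6, 274.8 and 246.9 CPM in GMP (log2 -6.33, SE 0.166, adjusted p = 3.07e-07), and both groups were tight. Cebpe, needed for later granules, differed by -5.46 (adjusted p = 9.4e-06). The repressor Gfi1 had 6.885, 5.239 and 4.743 CPM in HSC and 157.2 to 205.9 CPM in GMP (log2 -4.97, adjusted p = 6.56e-07). Irf8, which favours monocytes and dendritic cells, had 3.072, 2.717 and 3.405 CPM in HSC, against 315.6, 179.5, 135.4 and 92.77 CPM in GMP, so its GMP level varied over the pools far more than that of Cebpa. Spi1, which encodes PU.1, was read in both populations, with 46.92, 48.12 and 47.68 CPM in HSC and 212.8 to 276.8 CPM in GMP and a log2 difference of -2.37 (SE 0.146, adjusted p = 4.48e-06). The progenitor factor Myb differed by -1.15 and Myc by -0.51 (adjusted p = 0.000444 and 0.0132), Myc not with the pool block. Cebpb at -0.49 did not pass (adjusted p = 0.0751), but did without GMP pool 3 (-0.60). Higher in HSC were Hoxa10, Egr2 (2.56), the inhibitor Id1 (2.39), Klf4 (1.71), Nfe2 (0.85) and Id2 (1.00), which no longer passed with the pool block (0.99) or without HSC pool 7 (0.71). Cebpa lies on chromosome 7 (35119293 to 35121928, plus strand) of GRCm38.

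In the monocyte and macrophage list 19 of 27 tested members were lower and 2 higher, Klf4 and S100a4 (median log2 -1.70). The chemokine Ccl9 had 2.012, 1.261 and 1.581 CPM in HSC and 138.7 to 194.9 CPM in GMP (log2 -6.63, adjusted p = 4.53e-07), and the monocyte receptors Ccr2 and Cd14 differed by -4.95 and -4.82. In the mast cell and basophil list 14 of 18 were lower (median -3.54), among them the histamine enzyme Hdc (3.495, 1.261 and 2.676 CPM in HSC and 242.9 to 336.9 CPM in GMP), the IgE receptor chain Ms4a2 (log2 -6.82) and the basophil protease Mcpt8 (-7.03). The 2 higher members were Gata2 and Kit, which stem cells use as well. Of 22 tested secondary granule and neutrophil genes, which are switched on after the GMP stage, 12 (54.5%) were higher in HSC and 5 (22.7%) lower (median 1.27). The lower share was near the 19.7% of all tested genes. Lactoferrin (Ltf) had 87.28, 53.07 and 116.6 CPM in HSC, against 15.11 to 28.89 CPM in GMP, and Ngp had 198.0, 90.52 and 328.0 CPM in HSC, against 36.31 to 72.22 CPM in GMP. The list summed to 925.5, 525.4 and 2278 CPM in HSC pools 3, 5 and 7 and to 455.0 to 878.3 CPM in GMP, so the groups overlapped and HSC pool 7 stood highest. 3 members were higher in a joint fit of 15 control libraries of 4 populations, and 7 with no filter on low counts, while 3 were lower with the pool block. Without HSC pool 7, 8 were higher and 6 lower. The part of RNA from mature cells in these values was not tested. Of 13 tested dendritic cell genes, 7 were higher (Tcf4 by 1.04, H2-Aa by 2.69) and 1, Irf8, was lower.

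Cytokine receptor genes went both ways. Of 50 tested, 21 (42%) were higher in HSC, 18 (36%) lower and 11 not called (median log2 0.21). The higher members included the angiopoietin receptor Tek (60.16, 54.23 and 73.58 CPM in HSC and 0.4557 to 2.671 CPM in GMP, log2 5.95), its relative Tie1 (2.39), the TGF-beta co-receptors Tgfbr3 (5.31) and Eng (2.52), Tgfbr2 (1.41), the interleukin-27 receptor Il27ra (3.71), Epor and Fgfr3 (6.25). Csf2rb, the beta chain shared by the GM-CSF, interleukin-3 and interleukin-5 receptors, had 10.7, 9.023 and 8.513 CPM in HSC, against 123.4, 114.5, 90.09 and 112.9 CPM in GMP (log2 -3.55, SE 0.176, adjusted p = 1.72e-06). The M-CSF receptor Csf1r differed by -5.64, the G-CSF receptor Csf3r by -1.69, Csf2ra by -1.92, Il3ra by -2.52 and the interferon gamma receptor Ifngr1 by -2.43. Igf1r, the receptor at the end of the pathway that PAPP-A feeds, had 132.7, 143.0 and 132.2 CPM in HSC, against 150.3 to 184.0 CPM in GMP, and did not pass (log2 -0.31, adjusted p = 0.0815). Igfbp4, a binding protein that PAPP-A cleaves, had 190.3, 189.0 and 199.2 CPM in HSC, against 788.0, 670.3, 954.5 and 649.3 CPM in GMP (log2 -1.99, adjusted p = 2.98e-05). Flt3 had 22.01 to 32.41 CPM in HSC and 8.041 to 46.45 CPM in GMP, with GMP pool 3 the highest library, and did not pass (log2 0.47, adjusted p = 0.513), but did without that library (1.30).

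Genes used in common marrow sorts were examined as a check on the labels, with no weight as findings in case a gate used them. Ly6a (Sca-1) had 32.94, 35.31 and 54.12 CPM in HSC and at most 0.7361 CPM in GMP. Fcgr3 (CD16) had 2.33, 1.164 and 3.77 CPM in HSC and 170.9 to 236.8 CPM in GMP. Cd48 had 1.94 to 4.743 CPM in HSC and 85.87 to 125.0 CPM in GMP, and the SLAM receptor Slamf1 (CD150) ran the other way, with 32.62 to 48.65 CPM in HSC and 0.1679 to 1.049 CPM in GMP. Each of the 4 lay on the side that the names HSC and GMP imply in all 7 libraries. Kit was read in both, with 539.3 to 841.0 CPM in HSC and 291.0 to 356.5 CPM in GMP, and Cd34 overlapped (222.0 to 268.3 CPM in HSC and 253.4 to 389.7 CPM in GMP).

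Of 61 S phase genes, 23 (37.7%) were lower in HSC and 1, the chromatin assembly gene Chaf1b, was higher (median log2 -0.36). The licensing factor Cdt1 had 66.2, 60.35 and 60.08 CPM in HSC, against 154.5, 131.8, 155.5 and 130.1 CPM in GMP (log2 -1.20, adjusted p = 9.78e-05), and Rrm2, a ribonucleotide reductase subunit, differed by -1.49. Of 79 mitosis genes, 22 (27.8%) were lower and 5 (6.33%) higher, against 19.7% and 23% of all tested genes (median -0.28), with Aurkb at -0.94 and Psrc1 at 1.19. The lean of the mitosis list did not recur in the anti-PAPP-A mice, where 8 of 79 were lower and 8 higher (median -0.12). Over all genes tested in those mice, 18.4% were lower and 15.6% higher. Of the 61 S phase genes, 20 were lower and 1 higher there (median -0.35). The proliferation marker Mki67, named after its values were seen, had 663.8, 462.0 and 641.3 CPM in HSC, against 514.7, 596.5, 364.6 and 614.1 CPM in GMP, and the groups overlapped (log2 0.17, SE 0.215, adjusted p = 0.554). Among 35 genes of the quiescence and CDK list, 15 (42.9%) were higher and 2 (5.71%) lower (median 0.39). Besides Cdkn1c and Ndn, the higher members held Txnip (406.4, 431.4 and 423.1 CPM in HSC, 87.7 to 112.9 CPM in GMP, log2 2.06), Foxo1 (1.97), Btg2 (1.71), Ccnd1 (1.58), Cdkn2d (1.53) and Tob1 (1.35). The lower members were Cdk6, the kinase that speeds exit from quiescence (370.0, 372.5 and 242.3 CPM in HSC and 646.8 to 781.4 CPM in GMP, log2 -1.12, adjusted p = 0.00129), and Gadd45a (-1.75). Cdkn1b and Cdkn2c did not pass (log2 0.16 and 0.01, adjusted p = 0.627 and 0.978). With the pool block, 9 S phase and 6 mitosis genes were lower, and with library totals alone 12 and 10. Without HSC pool 7, 31 S phase and 29 mitosis genes were lower, and without HSC pool 5, 11 mitosis genes were. The 5 higher mitosis genes became 1 with the pool block and 2 to 3 without GMP pools 1, 3 or 7 or HSC pools 3 or 7, and the 2 lower quiescence genes became 4 without GMP pool 5 or HSC pool 7.

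**Figure D4:**
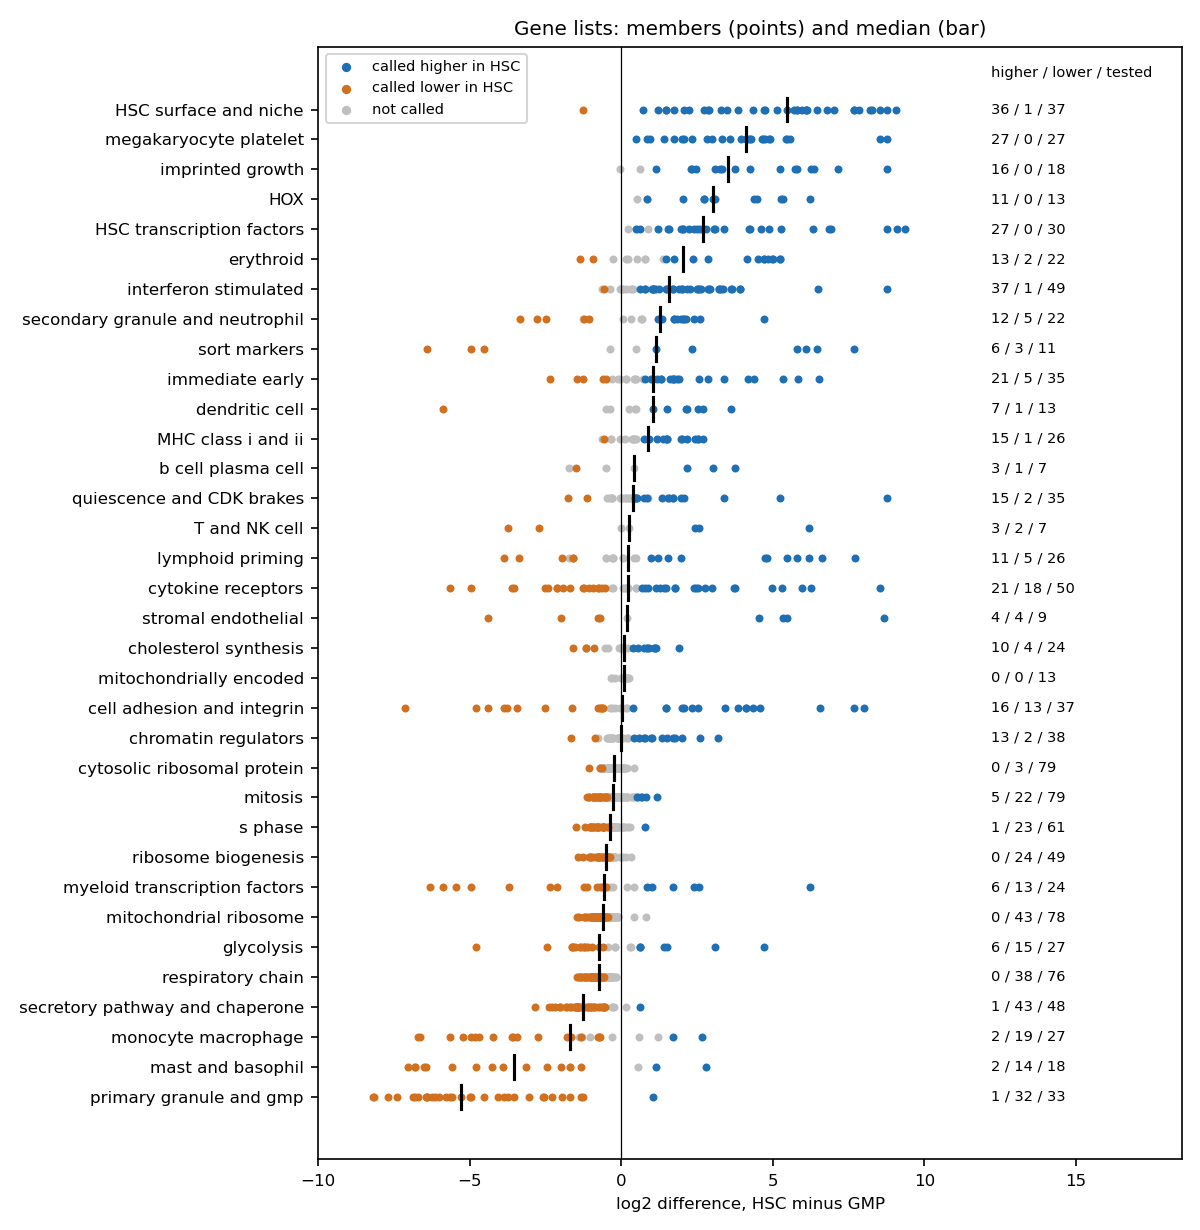
Log2 difference, HSC minus GMP (x axis), of every tested member of the 34 gene lists (rows, ordered by median), with the median as a black bar. Blue members were called higher and orange members lower in HSC, and the counts at the right are members higher, lower and tested. Stem cell, megakaryocyte, imprinted and HOX lists lie to the right, and primary granule, mast cell and monocyte lists to the left.

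Genes of the secretory pathway and its chaperones were lower in HSC, with 43 of 48 lower and 1, the stress-induced Dnajb9, higher (median log2 -1.28). Dnajb9 (0.61) did not pass with the pool block (0.65) or without HSC pool 7 or GMP pool 3 (0.42 and 0.53). The disulfide isomerase P4hb had 364.7, 369.0 and 432.5 CPM in HSC, against 1774, 1570, 1946 and 1871 CPM in GMP (log2 -2.20, adjusted p = 1.34e-05). Calr, the lectin chaperone calreticulin, differed by -2.29, the isomerase Pdia4 by -2.02 and Xbp1, the transcription factor of secretory cells, by -1.50. Of 27 glycolysis genes, 15 were lower and 6 higher (median -0.75). Hexokinase 3 (Hk3) had 27.43, 22.8 and 14.47 CPM in HSC, against 661.5, 561.0, 539.3 and 639.2 CPM in GMP (log2 -4.80), and Pgam1 differed by -2.46 and Gpi1 by -1.63. The glucose transporter gene Slc2a3, by contrast, had 157.9, 173.3 and 136.3 CPM in HSC, against 15.28 to 22.6 CPM in GMP (log2 3.08, adjusted p = 2.39e-06), and Aldoc and Pfkm were higher by 4.71 and 1.49. Alas1, the first enzyme of haem synthesis outside red cells, was among the 12 lower genes with the smallest p (33.68, 28.04 and 32.11 CPM in HSC and 626.7 to 795.0 CPM in GMP, log2 -4.52). That group also held Cebpa, Ccl9, Prss57, Gfi1, the Rab GTPase Rab44 (-7.32), the paralemmin Palm (-5.00), the annexin Anxa3 (-6.15), BC035044, Nucb2, Abcd2 and Rps6ka2.

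Ribosome and mitochondrial genes leaned lower by smaller amounts. Of 49 ribosome biogenesis genes 24 were lower and 0 higher (median -0.50; Rrs1 by -1.28 and Srm by -1.42). Of 78 mitochondrial ribosome genes 43 were lower and 0 higher (median -0.62), and of 76 nuclear respiratory chain genes 38 were lower and 0 higher (median -0.75). The complex III subunit Uqcrc1 had 141.9, 155.0 and 197.4 CPM in HSC and 313.3 to 440.6 CPM in GMP (log2 -1.13, adjusted p = 0.000715). The respiratory chain list summed to 6883, 6500 and 9472 CPM in HSC pools 3, 5 and 7, against 11706, 10265, 17004 and 10850 CPM in GMP pools 1, 3, 5 and 7. GMP pool 5 was far above the other GMP libraries and HSC pool 7 above the other HSC libraries, which are the 2 libraries with raised short transcripts. The counts hung on single stem cell libraries: without HSC pool 3, 5 or 7 in turn, 13, 14 and 56 respiratory chain genes and 16, 15 and 54 mitochondrial ribosome genes were lower. Ribosome biogenesis had 15 lower genes without HSC pool 3. Among tested genes with an annotated length, the median log2 difference was -0.23 for transcripts of up to 2042 bases and 0.12 from 4656 bases. Of the short ones 16.3% were higher and 23.1% lower in HSC, and of the long ones 29.3% and 15.1%. The same medians in the anti-PAPP-A mice were -0.03 and -0.06. The part of transcript length in the shifts of the ribosome and mitochondrial lists was not tested. In the anti-PAPP-A mice, 20 ribosome biogenesis, 13 mitochondrial ribosome and 12 respiratory chain genes were lower (medians -0.45, -0.18 and -0.25). With the pool block, 9, 9 and 10 genes of the respiratory chain, mitochondrial ribosome and ribosome biogenesis lists were lower, and with library totals alone 25, 18 and 11. Cytosolic ribosomal protein genes passed in 3 of 79 cases, all lower (median -0.23, and 0.02 with library totals alone), with 1 without HSC pool 3 or 5 and 7 without HSC pool 7, and the 13 mitochondrially encoded genes in 0 (median 0.09). Cholesterol synthesis genes were 10 (41.7%) higher and 4 (16.7%) lower of 24 (median 0.10, with Stard4 at 1.89 and Fdps at -1.58), and 5 were higher with the pool block. Over all tested genes 23% were higher and 19.7% lower, so the lower share was near that of all genes. Cholesterol synthesis genes were 5 higher and 4 lower in the anti-PAPP-A mice (median 0.10).

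Immediate early genes, which respond within minutes to signals and also to handling, were higher in HSC at 21 of 35 members and lower at 5 (median log2 1.05). The nuclear receptor Nr4a1 had 1116, 1557 and 563.2 CPM in HSC, against 26.87, 25.85, 14.23 and 10.75 CPM in GMP (log2 5.82, adjusted p = 1.47e-05), and Egr1 had 1823, 2165 and 1198 CPM in HSC, against 108.9 to 202.8 CPM in GMP (log2 3.38). In both genes HSC pool 5 was the highest and HSC pool 7 the lowest of the stem cell libraries. Jun did not pass (0.41, adjusted p = 0.236). The lower members were Tnfaip3 (-1.45), Nfkbia (-1.25), the chemokine Cxcl2 (-2.36), Myc and Rhob (-0.61). Myc and Rhob no longer passed with the pool block (-0.57 and -0.58) or without HSC pool 3, which left 3 lower members in each case. Sort time and handling are not given per library, and their part was not tested.

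Interferon-stimulated genes were higher in HSC at 37 of 49 tested members and lower at 1, Gbp3 (median log2 1.56). Gbp3 (-0.57, adjusted p = 0.0483) did not pass with the pool block (-0.53) or without any one of 5 libraries (GMP pools 1, 3 and 5 and HSC pools 3 and 5). The immunity GTPase Iigp1 had 32.41, 37.16 and 34.66 CPM in HSC and at most 0.127 CPM in GMP (log2 8.75, adjusted p = 7.77e-07). Gbp2 differed by 3.23 and Oasl2 by 3.22, and Gbp7 had 102.0, 102.3 and 101.8 CPM in HSC, against 33.51 to 36.86 CPM in GMP. The list summed to 2490 to 2972 CPM in HSC and 1412 to 1700 CPM in GMP, without overlap. Antigen presentation genes moved the same way, with 15 of 26 higher and 1, Tapbp, lower (median 0.89). Tapbp (-0.57, adjusted p = 0.0415) did not pass with the pool block (-0.53) or without any one of GMP pools 1, 5 and 7 and HSC pools 3 and 7. The class I genes H2-Q7, H2-Q6 and H2-T23 were higher by 2.44, 2.54 and 2.01. H2-Q6 and H2-Q7 are near-identical copies between which Salmon may split reads, so their single values are uncertain.

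Of 26 tested lymphoid genes, 11 (42.3%) were higher in HSC and 5 (19.2%) lower (median log2 0.23), against 23% and 19.7% of all tested genes. The 4 higher genes with the smallest p belong to the GTPase of immunity-associated protein family. Gimap6 had 204.0, 209.5 and 278.1 CPM in HSC, against 1.679, 6.39, 3.996 and 4.021 CPM in GMP (log2 5.80, adjusted p = 2.79e-06), and Gimap8, Gimap1 and Gimap5 differed by 5.45, 4.80 and 6.18. Lower genes included Satb1 (-3.37), Notch1 (-1.61), Rag2 (-1.58) and Cd52 (-1.96). Rag2 and Cd52 no longer passed with the pool block (-1.70 and -2.03) or without HSC pool 3 or 5. The interleukin-7 receptor gene Il7r had at most 0.973 CPM in any of the 7 libraries. Markers of mature lymphocytes were mostly too low to test, at 7 of 22 B and plasma cell genes and 7 of 22 T and NK genes tested. Of the tested ones, 3 B and plasma cell genes (42.9%) were higher and 1 (14.3%) lower (median 0.43), and 3 T and NK genes (42.9%) were higher and 2 (28.6%) lower (median 0.24). Jchain had 8.829 to 12.82 CPM in HSC and 0.4656 to 1.402 CPM in GMP (log2 3.76, adjusted p = 0.000107). Of 25 stromal and endothelial genes measured, 9 could be tested, 4 higher (Bgn, Emcn, Col1a2 and Kdr) and 4 lower (Vcam1, Igfbp4, Pecam1 and Pdgfrb). Pecam1 and Pdgfrb did not pass with the pool block (-0.66 and -0.81), nor Pdgfrb without any one of 5 of the 7 libraries. The summed levels of the B and plasma cell, T and NK, and stromal and endothelial lists were 159.1 to 225.3, 51.32 to 64.7 and 357.0 to 385.3 CPM in HSC and 336.7 to 451.3, 321.2 to 629.3 and 835.3 to 1119 CPM in GMP. Such sums follow the most abundant members and not the direction of most members. Igfbp4 alone, with the levels given above, made up most of the stromal and endothelial sum in every GMP library. Adhesion genes went both ways (16 higher and 13 lower of 37, median 0.03): Podxl and Esam were higher by 8.02 and 7.67, while Ncam1 and Vcam1 differed by -3.43 and -4.40. Among 38 chromatin regulators 13 (34.2%) were higher and 2 (5.26%) lower (median -0.02, 8 higher with the pool block). The higher ones held the Polycomb genes Cbx7 (2.59) and Phc1 (1.78) and the deacetylase Hdac11 (3.18), and the lower ones included Jarid2 (-0.87), which did not pass with the pool block (-0.85). The chromatin median was 0.22 with library totals alone. Among the same 38 genes in the anti-PAPP-A mice, 9 were higher and 9 lower (median 0.00), so the excess of higher members did not recur.

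The same comparison in the anti-PAPP-A mice shared no library with the control comparison. Of 13396 genes tested there, 4546 (33.9%) passed, 2086 higher and 2460 lower in HSC. Among the control calls, 1848 of the higher and 1929 of the lower genes were called the same way, which is 55% and 67% of the control calls and 88.6% and 78.4% of the calls in treated mice. Only 2752 of the 3359 higher control calls could be tested in the treated mice, against 2785 of the 2880 lower ones. The shares of 55% and 67% count the untested genes as not recurring. None of the control calls was called the opposite way (0 of each). Mecom differed by 6.36 in treated mice, Hlf by 4.17, Mpo by -8.12 and Cebpa by -6.20. The difference between the 2 comparisons, tested directly as the interaction of population and treatment over 15 libraries, was called at 0 of 16084 genes in edgeR, while 535 (3.33%) had an unadjusted p under 0.05 and the smallest adjusted p was 0.965. 1 HSC library of the treated mice, pool 6, held only 107412 counts, and without it 4829 genes passed. A p that misses the threshold does not show that the comparisons were alike.

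**Figure D5:**
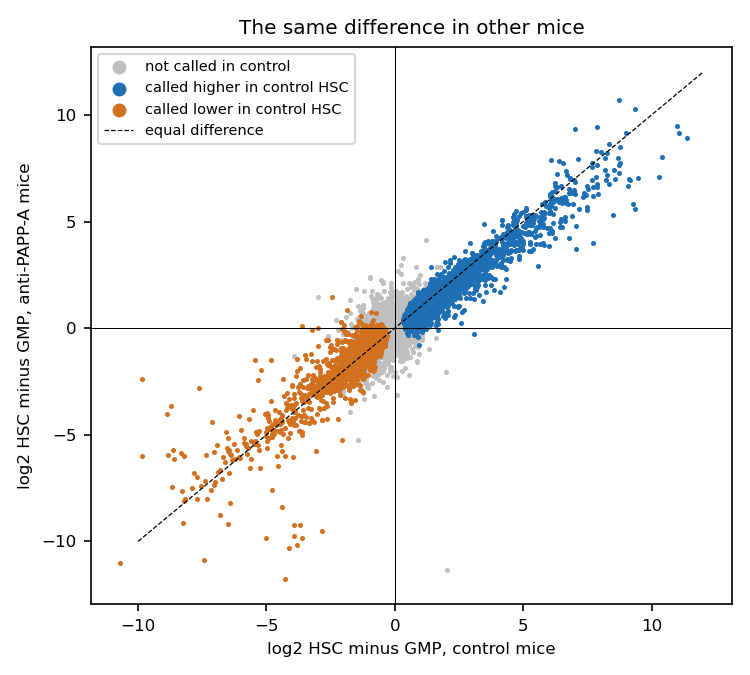
Log2 difference, HSC minus GMP, in the anti-PAPP-A mice (y axis) against the same difference in the control mice (x axis) for genes tested in both. Blue and orange points were called higher and lower in HSC in the control mice, and the dashed line marks equal differences. Of the control calls tested in both, 2718 of 2752 higher and 2747 of 2785 lower genes had the same sign in the anti-PAPP-A mice.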

How the data were processed

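RNA was sequenced from sorted mouse bone marrow populations with a strand-specific library kit, per the labels' protocols. The deposited values are estimated counts per gene that the authors made with Salmon (version not given in the sources used here), after quality control with FastQC 0.11.5, with mm10 as the genome build, per the submitters' processing notes. This table of 56332 genes repeats 18072 of them on several lines with equal values, and each was used once. Estimated counts entered the fits as whole numbers, with any fraction dropped. Genes kept by edgeR's expression filter were scaled by TMM and tested with the quasi-likelihood test (edgeR 4.0.16, R 4.3.3), with Benjamini-Hochberg adjustment over all genes tested and a threshold of 0.05. A gene could pass the filter on its level in either population alone. The 3 HSC and 4 GMP control libraries entered the fit alone. The anti-PAPP-A libraries were fitted the same way, and an interaction of population and treatment was fitted over both. The control fit was tested on simulated data. It recovered 33% of 100 genes with a true absolute log2 difference of 1 and 76% of 100 with 2. It made 3 false calls among the unchanged genes of the 14595. The simulation changed far fewer genes than the 42.7% called in the data. Its adjusted threshold was therefore harder to pass, and the recovered shares do not give the sensitivity of the real comparison. A gene that did not pass can still differ. DESeq2 1.42.0 and limma 3.58.1 (voom) were alternatives. Coordinates are from GENCODE M21 (GRCm38).

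A pool number marks the same mice, so a fit with the pool as a replicate block was an alternative. Deviations of same-numbered HSC and GMP libraries from their group means correlated at 0.142, -0.36 and -0.23 for pools 3, 5 and 7. Total counts ran from 7172857 to 32179356, and counting intervals and floors cover counting error only.

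The libraries, the 34 gene lists and the tests were chosen with earlier results of these data known. Genes were named by a rule: the markers Mecom, Hlf and Mpo, the 12 with the smallest p and the 8 with the largest difference each way (non-overlapping groups), up to 4 called members per list each way by p, and members of the stem cell factor, myeloid factor, receptor, quiescence and sort marker lists. Other genes were named after their values were seen. Genes on UCSC transcript IDs were counted and not named as results. Sort gates were not at hand. Some genes are not reported here.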

Additional observations from a re-analysis of the deposited data

Results flagged for a closer look

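Among 178 named genes, 10 had 1 GMP library far from the other 3, by a gap over the group's range above Dixon's 95% critical value. Chance flags about 1 in 20 groups. The 3 HSC libraries were not put to this test. GMP pool 3 was the high library for Vwf (12.59 CPM against 2.015 to 2.709 CPM in the others), Tek (2.671 against 0.4557 to 0.7618 CPM), H2-Aa (13.07 against 3.023 to 3.428 CPM), Flt3 (46.45 against 8.041 to 13.6 CPM), Foxo1 (7.916 against 6.046 to 6.222 CPM) and Satb1 (63.43 against 47.39 to 50.07 CPM). GMP pool 1 was high for Klf4 (115.4 against 36.88 to 42.35 CPM) and for Gm42418 (39668 against 245.3 to 762.7 CPM). GMP pool 5 was high for Jchain (1.402 against 0.4656 to 0.5723 CPM) and Cebpa (274.8 against 246.6 to 249.7 CPM).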

How the results depend on the processing

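In the control comparison 6239 genes were called. The pool block gave 3687 (1420 lower), a size threshold of 1 gave 3868 (1421 lower), and library totals alone gave 1685 lower genes. The other alternatives gave 5415 to 6756 calls, and leaving out each library in turn gave 4936 to 6604. The count of the interaction of population and treatment was 0, and 1 in DESeq2. It ran from 0 to 1 when each library was left out, with the 1 found without HSC control pool 7. The cause was not tested. In the anti-PAPP-A libraries, 3875 to 5125 genes were called under all alternatives, against 4546.

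Of 177 named and tested genes, 155 kept direction and side of the threshold in all 18 alternatives. 1 reversed: Gm42418, not called at -0.79, ran from -1.93 without HSC pool 7 to 3.57 without GMP pool 1, where 3.29% of counts fell on it. The pool block changed calls of named genes only as given beside them. The gene lists were less stable. Of 102 list results (members higher, members lower and median of each list), 59 moved past a set margin in at least 1 alternative. Counted over single alternatives, 213 list values moved and 1623 did not. Leaving out rows led by ribosomal RNA, chosen after seeing the data, gave 6244 calls. Depth limits the 107412-count library most.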
